A study of Homo sapiens with 16 samples.

Results

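This account concerns C4-2B/Rx2dox cells that had been exposed to doxycycline (Dox) for 2 days, set against the same cells after 1 day of Dox, and follows how expression moved between 24 h and 48 h once Runx2 had been switched on. The Dox day 2 and Dox day 1 groups held 4 cultures each, 8 of the 16 arrays of the series, and every gene measured was taken by its brightest probe, which gave 16922 genes. The C4-2B line derives from LNCaP prostate cancer cells and grows without androgen. In this subline a lentiviral pSLIK vector carried Flag-tagged mouse Runx2 behind a tetracycline responsive element, with the rtTA3 activator driven by the Ubi-c promoter, and transduced cells had been selected with hygromycin. Dox day 2 cultures received 250 ng/ml Dox for 48 h and Dox day 1 cultures 250 ng/ml Dox for 24 h, in RPMI medium with Tet-approved serum. Vehicle day 2 and vehicle day 1 cultures of the same subline, 4 each, received water for the same times and carried the same integrated vector. Arrays of Dox on cells without active Runx2 were not analysed here, so effects of the drug itself and of the induced protein cannot be told apart. Arrays of 1 treatment on different days differed in day and possibly in chip, the assignment to chips is not given in the sources used here, and day and chip cannot be separated.

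Runx2 is a DNA-binding transcription factor that pairs with CBFB, recognizes the hexamer ACCACA and is best known as the master regulator of bone-forming osteoblasts. It can activate or repress genes depending on the cell, and in osteoblasts it is also known to restrain proliferation. A gene that answers to it directly and quickly may reach its level within a day, whereas long-lived transcripts or genes further down a cascade may keep moving. A second time point shows the course each transcript took, but not which of these reasons lay behind it.

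All levels below are log2 signals after background correction and quantile normalization, and a difference of 1 is a doubling. Changes are log2 differences, Dox day 2 minus Dox day 1, tested with limma, with p-values adjusted by Benjamini-Hochberg over the 24526 probes of the array and a threshold of 0.05. A probe was taken to be above background where its detection p, the share of negative control beads that outshone it, lay below 0.01. Between 40.1% and 42.2% of probes met this on each array. Raw median signals were 107 to 113 in Dox day 2, 125 to 139 in Dox day 1, 108 to 111 in vehicle day 2 and 119 to 124 in vehicle day 1. The Dox day 2 and Dox day 1 arrays correlated at 0.984 to 0.986 over all probes, against 0.994 to 0.996 within either group. Of 12 genes that mark C4-2B cells, KLK3 and SLC45A3 among them, 11 were above background in Dox cultures, while of 6 stromal, 5 hematopoietic and 4 endothelial markers 5, 4 and 3 were at background on all 8 Dox arrays. The array's probe for human RUNX2 read 4.97, 4.72, 4.67 and 5.18 in Dox day 2 and 5.47, 4.62, 4.83 and 4.7 in Dox day 1, above background on 1 of these arrays. It therefore does not show the induced mouse cDNA and does not check the labels.

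Between the days 1988 genes rose and 1868 fell in Dox cultures, 11.7% and 11% of the genes tested. Of these, 147 rose at least 2-fold (0.869%) and 219 fell at least 2-fold (1.29%). In every one of these 147 and 219 genes the 4 arrays of Dox day 2 did not overlap the 4 of Dox day 1. They were chosen for a large change on these same arrays, which nearly fixes that separation in advance. Among all genes 24.1% showed it, but this share is no test of the chosen genes. The groups hold 4 arrays each, for which the smallest two-sided exact permutation p is 0.029. The split between higher and lower calls moved with the scaling of the arrays. With median scaling in place of quantile normalization it was 1325 higher and 3221 lower, and the median over the 7929 genes above background shifted by -0.18. With scaling on the probes above background on all arrays, which was added once the values were known, it was 7832 higher and 1783 lower with a median over all genes of 0.22, and 2254 higher and 1744 lower among the genes above background. In vehicle cultures, whose arrays are shared with none of these, the same interval moved 1072 genes up and 1029 down (6.33% and 6.08%), but 34 up and 7 down by at least 2-fold (0.201% and 0.0414%). Of the 147 genes, 41 also rose and 13 fell with vehicle, and of the 219 genes, 87 also fell and 2 rose. The change in Dox cultures was set against the change in vehicle cultures as the interaction in the same fit. It differed for 138 of the 147 genes in the direction of the rise and for 217 of the 219 in the direction of the fall. Of all genes, 6.26% and 6.77% had an interaction above and below 0. The interaction contains the Dox change by which the 147 and 219 genes were chosen, so these counts were largely set by that choice.

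SCGB1C1 had the largest rise. It lies at chr11:188050-194575 (GRCh38.p14) and encodes a member of the secretoglobin family of small secreted proteins. It read 8.96, 8.8, 8.93 and 8.66 in Dox day 2 against 4.97, 4.93, 4.94 and 4.62 in Dox day 1. None of its Dox day 1 or vehicle arrays was above background, so its rise is given as at least 10.6-fold (log2 change 3.97, standard error 0.12, adjusted p = 2.2e-13).

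CST7 (chr20:24949269-24959928), which encodes cystatin F, an inhibitor of lysosomal cysteine proteases, read 9.27, 9.25, 9.25 and 9.14 in Dox day 2 and 5.86, 5.98, 6.05 and 5.63 in Dox day 1. It stood 10.2-fold higher on day 2 (log2 change 3.35, standard error 0.092, adjusted p = 1.9e-13), and was at background on all 8 vehicle arrays. S100A4 (chr1:153543621-153545806), a calcium-binding protein linked to cell motility and metastasis, read 9.08, 9.22, 9.32 and 8.94 in Dox day 2 and 5.75, 5.88, 5.86 and 6.21 in Dox day 1, a 9.29-fold rise (log2 change 3.22, adjusted p = 7e-13). Its other probe rose by a log2 change of 3.41. PIP (chr7:143132077-143139739), a secretory protein of apocrine glands first described as prolactin-inducible, was already bright on day 1 and climbed further, with 12.72, 12.7, 12.66 and 12.63 in Dox day 2 against 9.99, 10.04, 10 and 9.96 in Dox day 1 (6.41-fold, log2 change 2.68, adjusted p = 2.8e-13). Vehicle cultures averaged 6.44 on day 2 and 6.73 on day 1 for PIP.

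The other 8 of the 12 largest rises ran between 2.19 and 3.03 on the log2 scale. CETP, the plasma protein that moves cholesteryl esters between lipoproteins, rose at least 5.64-fold and LTC4S, the enzyme that makes leukotriene C4, at least 2.81-fold, both against Dox day 1 arrays at background. CYP2E1, an ethanol-oxidizing cytochrome P450, rose 6.93-fold, FOLR1, the folate receptor alpha, 5.91-fold, and LCN2, an iron-siderophore carrier, 5.86-fold. GLDN, an adhesion protein of the nodes of peripheral nerves, rose 5.76-fold, NPTX1, a neuronal pentraxin, 4.83-fold, and HTRA1, a secreted serine protease, 4.55-fold. Of the 4 Dox day 1 arrays, LCN2 and GLDN were above background on 2 and NPTX1 on 3. Of all 12, only LCN2 also rose in vehicle cultures (0.50, adjusted p = 0.0033), and PIP was lower there (-0.29, adjusted p = 0.027). For the other 10 the vehicle change did not pass the test.

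**Figure D1:**
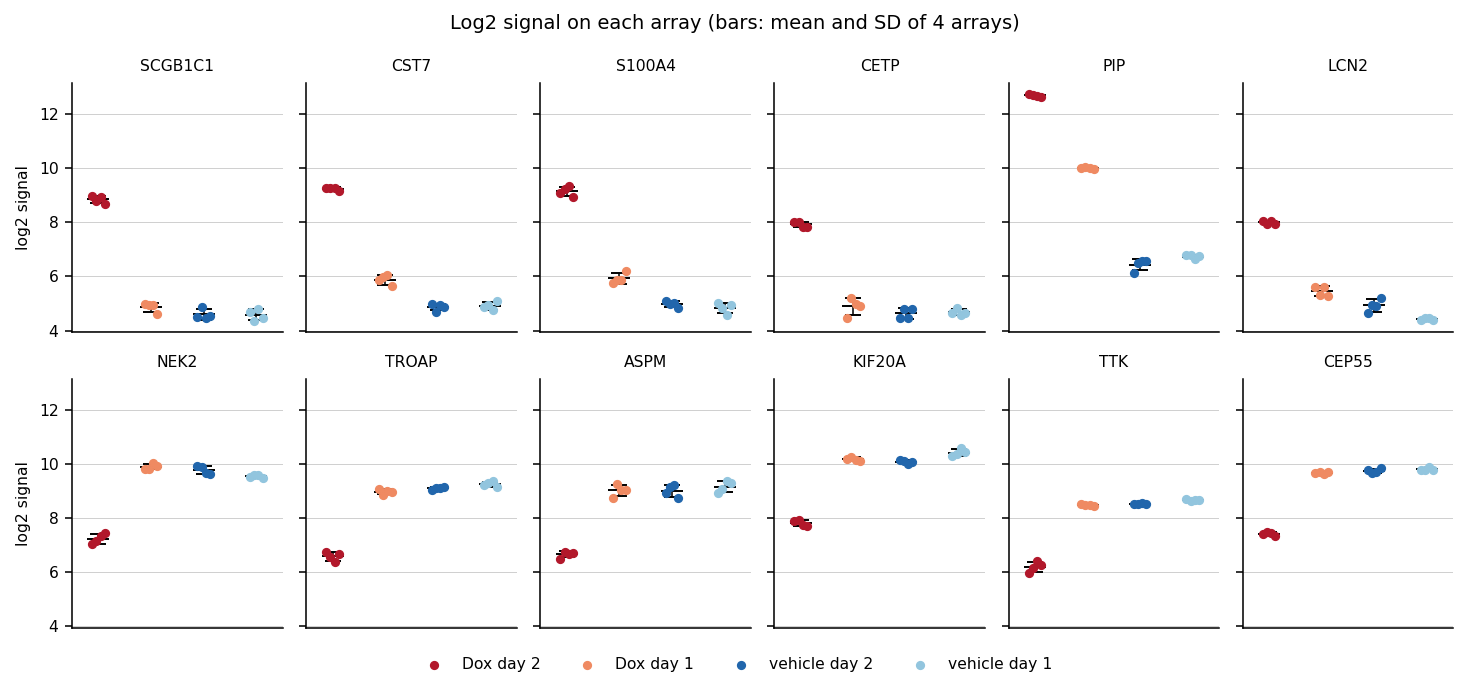
Log2 signal (vertical axis) of 6 of the largest rises (upper row) and 6 strongly falling genes (lower row) on each of the 16 arrays, with bars for the mean and SD of 4 arrays. SCGB1C1 and CETP lie between 7.83 and 8.96 on Dox day 2 and at background in the 3 other groups, while NEK2 and CEP55 lie between 7.03 and 7.49 on Dox day 2 and at 9.49 or higher in the others.

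The largest falls were mostly in genes of mitosis. NEK2 (chr1:211658256-211675621), a kinase that separates centrosomes, read 7.03, 7.16, 7.32 and 7.43 in Dox day 2 against 9.82, 9.81, 10.03 and 9.91 in Dox day 1. It was 6.31-fold lower on day 2 (log2 change -2.66, standard error 0.088, adjusted p = 4.6e-13), although on day 1 Dox cultures had stood 1.27-fold above vehicle (adjusted p = 0.0077). CEP55 (chr10:93496612-93529092), which acts in the final severing of daughter cells, read 7.41, 7.49, 7.44 and 7.34 in Dox day 2 and 9.67, 9.69, 9.62 and 9.69 in Dox day 1 (4.74-fold lower, adjusted p = 8.9e-14). After 1 day of Dox it did not pass the test against vehicle (log2 difference -0.13, adjusted p = 0.13).

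KIF20A, a kinesin of cytokinesis, was 5.08-fold lower, TTK, a kinase of the spindle checkpoint, 4.88-fold lower, and CDC25C, the phosphatase that activates CDK1 at the entry into mitosis, 4.88-fold lower. CENPE, a kinetochore motor, read 4.96, 5.01, 5.34 and 5.33 in Dox day 2, at background on all of them, and 7.21, 7.53, 7.39 and 7.49 in Dox day 1, so its fall is at least 3.88-fold. The kinesins KIFC1, KIF4A and KIF2C were 5.27-fold, 4.88-fold and 4.81-fold lower, the spindle proteins ASPM, TROAP, GTSE1 and DLGAP5 5.11-fold, 5.25-fold, 4.92-fold and 4.68-fold lower, PIMREG 5.23-fold lower, and the helicase PIF1 at least 3.98-fold lower. In vehicle cultures KIFC1, GTSE1, PIF1, PIMREG and KIF20A also fell, by 0.66, 0.58, 0.47, 0.45 and 0.34 (adjusted p = 0.00024 to 0.0061). For the other genes of this paragraph the vehicle change did not pass the test.

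The wider group of mitosis genes moved with those named. Of 50 measured genes of mitosis and the spindle, 48 fell between the days in Dox cultures, 42 of them at least 2-fold, and none rose, with a median change of -1.98 against 0.0023 over all genes. In vehicle cultures 16 of the 50 fell and the median was -0.20. The 2 that did not pass with Dox were NCAPH (-0.19) and SPC25 (-0.25), named here after their values were seen, and neither was above background on more than 1 Dox array. On day 1 the median difference of these 50 genes from vehicle had been -0.24, with 23 lower and 2 higher (11.5% and 10.7% of all genes). The summed raw signal of the group was 16650 to 17900 on the Dox day 2 arrays and 55170 to 67230 on the Dox day 1 arrays.

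DNA replication genes also fell, with smaller medians. Of 44 measured genes of origin licensing and the replication fork, 37 fell and none rose, 20 of them at least 2-fold, with a median of -0.97 against -0.22 in vehicle cultures, and 32 of the 44 had already been lower than vehicle on day 1 (median -0.47, none higher). CDC45, part of the replicative helicase, was 3.55-fold lower on day 2 than on day 1, and MCM2 and MCM5, 2 more of its subunits, were 3.47-fold and 3.27-fold lower. In nucleotide synthesis 18 of 26 fell and none rose, led by TYMS, thymidylate synthase (3.53-fold), and TK1, thymidine kinase (3.27-fold). In DNA repair and the checkpoints 16 of 22 fell and 1 rose, with the exonuclease EXO1 4.06-fold and FANCI, of the Fanconi anemia pathway, 3.4-fold lower. CCNA2, cyclin A2, was 3.95-fold and CKS1B, a subunit of cyclin-dependent kinases, 3.07-fold lower.

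Inhibitors of cyclin-dependent kinases did not move as 1 group. Of 10 measured inhibitors and TOB/BTG antiproliferative genes, 3 rose and 2 fell. CDKN1C, which encodes p57, rose 2.66-fold with Dox (log2 change 1.41, adjusted p = 4.4e-08) and by 1.31 with vehicle (adjusted p = 1.2e-06), and the difference between these changes did not pass the test (adjusted p = 0.83). CDKN2D, which encodes p19, fell 2.17-fold with Dox, and its vehicle change did not pass (0.07). Levels of mRNA in bulk cultures cannot tell fewer cells in a phase of the cell cycle from less RNA in each cell.

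The promoters of 6 falling genes and 1 rising gene are shown, since the shares of motifs reported after them rest on such letters. Sequences are the 250 bases before the RefSeq start of each gene (GRCh38.p14), 5′ to 3′ in the direction of the gene, and 58 of the 71 genes among the largest changes and the courses were in the RefSeq promoter table. Capitals mark, on either strand, TTTGAA, the core of the cell cycle homology region, and CCAAT, the box bound by NF-Y, in the first 4 promoters, from 3 genes first lowered on day 2, which hold both, and NEK2, in which only the NF-Y box was found.
CEP55, first lowered on day 2, chr10:93496362-93496611, plus strand: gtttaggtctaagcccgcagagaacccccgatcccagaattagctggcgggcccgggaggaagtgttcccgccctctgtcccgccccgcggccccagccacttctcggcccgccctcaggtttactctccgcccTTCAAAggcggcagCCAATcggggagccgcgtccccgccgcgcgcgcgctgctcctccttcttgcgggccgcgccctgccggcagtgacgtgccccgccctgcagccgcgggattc
DLGAP5, first lowered on day 2, chr14:55191586-55191835, minus strand: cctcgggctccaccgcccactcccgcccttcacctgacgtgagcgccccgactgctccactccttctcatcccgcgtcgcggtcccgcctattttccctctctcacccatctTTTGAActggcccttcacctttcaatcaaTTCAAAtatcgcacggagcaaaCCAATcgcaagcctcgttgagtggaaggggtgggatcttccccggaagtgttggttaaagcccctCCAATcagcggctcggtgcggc
ASPM, first lowered on day 2, chr1:197146670-197146919, minus strand: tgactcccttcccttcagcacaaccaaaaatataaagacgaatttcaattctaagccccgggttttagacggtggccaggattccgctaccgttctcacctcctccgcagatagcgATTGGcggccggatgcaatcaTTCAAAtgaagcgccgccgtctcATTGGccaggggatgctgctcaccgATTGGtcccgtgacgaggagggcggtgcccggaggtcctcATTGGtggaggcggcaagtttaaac
NEK2, the largest fall, chr1:211675622-211675871, minus strand: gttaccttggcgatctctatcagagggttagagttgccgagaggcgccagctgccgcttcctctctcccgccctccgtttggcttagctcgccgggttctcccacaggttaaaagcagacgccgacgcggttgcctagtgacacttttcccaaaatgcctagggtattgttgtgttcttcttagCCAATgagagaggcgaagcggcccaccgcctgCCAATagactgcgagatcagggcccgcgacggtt
In the next 2, capitals mark the E2F-type octamers TTTGGCGC or TTTCCCGC, read on either strand, in genes that act before and in S phase.
E2F2, lowered on day 1 and falling further, chr1:23531234-23531483, minus strand: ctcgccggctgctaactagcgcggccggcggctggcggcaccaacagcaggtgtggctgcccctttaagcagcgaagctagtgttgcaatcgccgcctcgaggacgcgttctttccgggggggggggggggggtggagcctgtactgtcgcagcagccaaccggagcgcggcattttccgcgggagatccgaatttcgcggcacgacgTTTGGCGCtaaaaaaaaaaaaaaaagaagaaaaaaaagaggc
TYMS, falling on day 2, chr18:657403-657652, plus strand: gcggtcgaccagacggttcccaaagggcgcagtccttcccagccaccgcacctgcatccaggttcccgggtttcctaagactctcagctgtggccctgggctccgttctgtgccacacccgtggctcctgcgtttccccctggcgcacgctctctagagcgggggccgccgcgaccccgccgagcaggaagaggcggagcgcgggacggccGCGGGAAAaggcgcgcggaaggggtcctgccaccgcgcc
In the last, capitals mark ACCACA, the Runx hexamer, on either strand, in the only 1 of the 58 promoters that held it. Its gene, LTC4S, rose between the Dox days but was not counted as first raised on day 2. The reason is that its day 1 difference from vehicle passed the limma test (0.22, adjusted p = 0.04), with all these arrays at background.
LTC4S, a late rise, chr5:179793736-179793985, plus strand: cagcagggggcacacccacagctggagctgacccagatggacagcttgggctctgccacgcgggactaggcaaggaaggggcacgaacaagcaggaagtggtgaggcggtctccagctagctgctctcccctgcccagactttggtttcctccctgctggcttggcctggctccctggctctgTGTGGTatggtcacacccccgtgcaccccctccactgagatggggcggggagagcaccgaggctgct

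Among the 58 genes first lowered on day 2, 50 were in the table, and 24 of these 50 promoters (48%) held both the homology region core and the NF-Y box, against 4.26% of the promoters of the 13568 measured genes in the table. Taken singly, the homology region core stood in 25 of the 50 (50%, against 10.7% of all) and the NF-Y box in 34 (68%, against 34.9%). Of 42 mitosis promoters 23 held the core and 31 the NF-Y box. Of 38 replication promoters none held the core and 20 the NF-Y box, and 11 (28.9%) held an E2F-type octamer, against 2.67% of all and 4.76% of the mitosis promoters. The Runx hexamer stood in 2 of the 50 promoters of genes first lowered (4%) and in 1 of 32 of genes first raised on day 2 (3.12%), against 8.73% of all. Of the 148 genes that rose at once and went on, 117 were in the table (79.1%), and 5 of these promoters held the Runx hexamer (4.27%). Since fewer than 80% of these genes had a promoter in the table, the check is void for them and nothing is read from the value. The core, the NF-Y box and the octamers were chosen after the mitotic genes had been seen to fall, and a match of letters is a description, not a bound site.

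**Figure D2:**
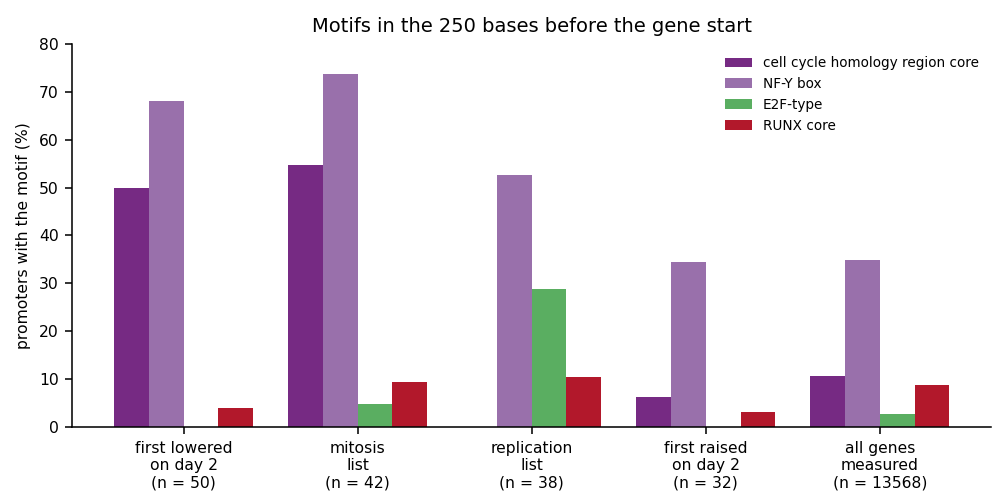
Share of promoters (vertical axis, percent) that hold each motif in the 250 bases before the gene start, for genes first lowered on day 2, the mitosis and replication lists, genes first raised on day 2 and all measured genes, with the number of promoters below each group. The core of the cell cycle homology region stands in 50% of the first group and 10.7% of all genes.

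The courses of the genes that Dox had moved on day 1 were followed next. On day 1, 233 genes stood at least 2-fold above vehicle with an adjusted p under 0.05 (1.38% of genes) and 61 at least 2-fold below (0.36%). The Dox day 1 arrays enter the day 1 difference and the later change with opposite signs, so random error in them favors moving back, and the counts below are descriptions. Of the 233 raised genes, 148 (63.5%) went on rising from day 1 to day 2, with a median further change of 0.75. Another 59 settled, meaning that the change did not pass the test and its 95% interval lay within 1.5-fold in either direction, and 21 moved back. For 61 lowered genes the numbers were 25 going on falling, 31 settled and 5 moving back. Of the raised genes that went on rising, 44 had been at background on all vehicle day 1 arrays, so that their day 1 fold is a bound, as had 10 of those that settled and 5 of those that moved back.

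Among genes that went on rising, the median difference from vehicle was 2.12 on day 2 and 1.35 on day 1. SGK1, a kinase induced by glucocorticoids and growth factors, stood 18.4-fold above vehicle on day 1 and rose another 2.21-fold (11.98, 11.83, 11.79 and 11.92 in Dox day 2 against 10.83, 10.76, 10.71 and 10.63 in Dox day 1, adjusted p = 6.4e-09). NPPC, the precursor of C-type natriuretic peptide, had risen 4-fold on day 1 and rose a further 4.07-fold. ASS1, which makes argininosuccinate for arginine synthesis, rose a further 3.61-fold, the detoxifying enzyme GSTA1 3.3-fold and GSTM1 2.56-fold, SPHK1, which makes sphingosine 1-phosphate, 2.91-fold, and FUCA1, a lysosomal fucosidase, 2.89-fold. SMAD3, a transducer of TGF-beta signals, rose 2.16-fold further, ESPN and SH3PXD2A, which organize actin bundles and invadopodia, 2.21-fold and 2.09-fold, the chemokine CXCL12 1.96-fold and the mucin MUC1 1.73-fold. SNAI2, a repressor that acts in epithelial to mesenchymal transition, was raised by a log2 difference of 0.97 on day 1, just short of the 2-fold needed for a course, and rose 3.86-fold between the days, with 1 of 4 Dox day 1 arrays above background.

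Of the 148 genes, 103 had a change that differed from the change in vehicle cultures, 102 of them in the direction of the rise. The rise that placed the genes in this course is part of that difference, so the direction was favored by the choice. Vehicle cultures themselves moved 44 of the 148 up and 15 down. Of the study's own list of genes most responsive to Runx2, which was chosen on these samples, 66 were measured, and between the days 46 rose and 13 fell with a median of 0.60.

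Genes that settled stood within that interval of their 24 h level at 48 h, and no time before or between these was measured. DUSP1 (chr5:172768096-172771195), a phosphatase that switches off MAP kinases, read 10.93, 10.99, 10.97 and 11 in Dox day 2 and 10.82, 10.89, 10.85 and 10.83 in Dox day 1, with vehicle at 7.98 on day 2 and 7.89 on day 1. Its change was 0.12 (adjusted p = 0.17), without overlap of the Dox groups. It passed the test with a background offset of 50 (adjusted p = 0.044) and without background correction (0.049), and was -0.09 with median scaling. PRKCD, protein kinase C delta, stood 6.37-fold above vehicle on day 1 and then changed by -0.16 (adjusted p = 0.097, and -0.33 with adjusted p = 0.0015 under median scaling), and THRSP, a regulator of lipid synthesis genes, at least 2.7-fold above vehicle and then changed by -0.09 (adjusted p = 0.73). The 5 raised genes whose course stayed undetermined were AHNAK (0.45), BRDT (0.35), LCN15 (-0.27), NAV2 (0.38) and OXCT2 (0.38), none of which passed the test. These calls depended on the setting. AHNAK passed with the filter on dim probes (adjusted p = 0.025), BRDT, NAV2 and OXCT2 passed with an offset of 50 (adjusted p = 0.047, 0.024 and 0.017), and LCN15 passed without Dox day 1 replicate 3 (-0.49, adjusted p = 0.0019). All but NAV2, which the study's text names, are named because they make up this count.

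Of the 21 genes that moved back, all but 2 stayed above vehicle on day 2. PLEKHS1 (chr10:113751682-113783429), a pleckstrin homology domain protein, had the largest return, with 7.94, 7.82, 8.04 and 8.05 in Dox day 2 against 8.94, 9.18, 9.19 and 9.19 in Dox day 1 (2.24-fold lower, adjusted p = 5.3e-09), and still lay far above the vehicle means of 5.17 on day 2 and 5.62 on day 1. XBP1, a transcription factor of the unfolded protein response, read 11.91, 11.85, 11.74 and 11.85 in Dox day 2, 12.65, 12.45, 12.5 and 12.59 in Dox day 1, 11.83, 11.69, 11.91 and 11.8 in vehicle day 2 and 11.45, 11.34, 11.42 and 11.4 in vehicle day 1. It had returned into the range of vehicle by day 2 (log2 difference 0.03, adjusted p = 0.81), through a fall of 0.71 with Dox (adjusted p = 1.9e-07) and a rise of 0.41 with vehicle (adjusted p = 0.00044).

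DHRS3, a retinaldehyde reductase named because it is the second such gene, changed by -0.22 with Dox (adjusted p = 0.03) while vehicle rose by 1.18. Its fall no longer passed when any 1 of Dox day 2 replicates 2, 3 and 4 or Dox day 1 replicates 1, 2 and 4 was left out (adjusted p = 0.05 to 0.1). SIPA1L2 was 1.96-fold lower on day 2 than on day 1, GRHL3, an epithelial transcription factor that was above background on 1 of 4 Dox day 2 arrays, 1.68-fold lower (adjusted p = 8.6e-05, but 0.051 in the deposited normalized values), and LFNG, a glycosyltransferase that modifies Notch, 1.61-fold lower. None of these 3 moved in vehicle cultures past the test (adjusted p = 0.6, 0.84 and 0.62).

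**Figure D3:**
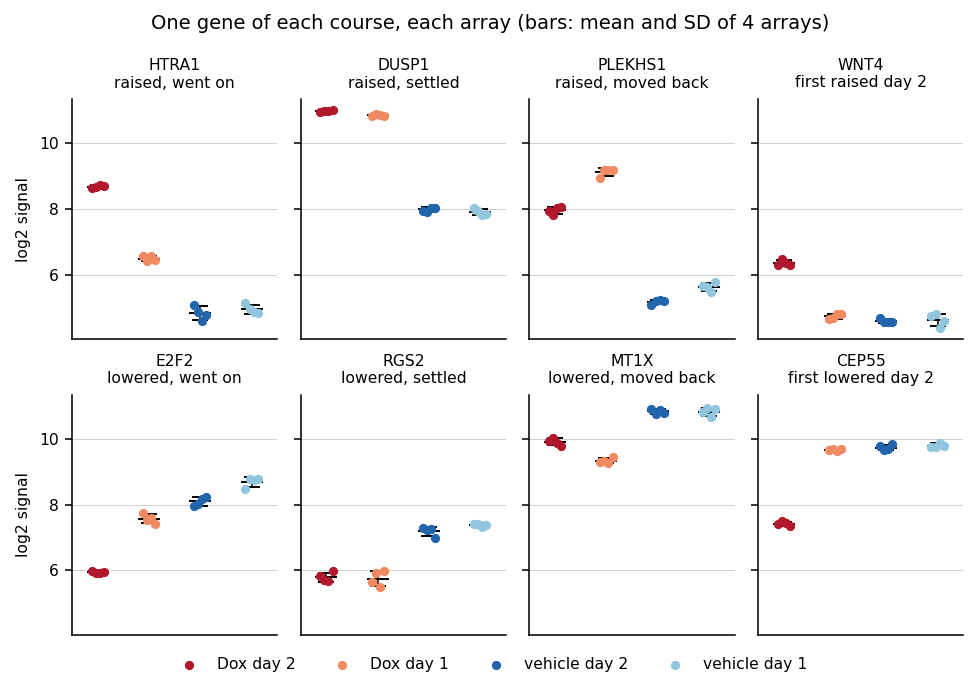
Log2 signal (vertical axis) on each of the 16 arrays for 1 gene of each course, with bars for the mean and SD of 4 arrays. HTRA1 climbs on Dox day 2 and DUSP1 stays near the level it had on Dox day 1. PLEKHS1 comes down from its Dox day 1 level and WNT4 leaves background on Dox day 2. E2F2, RGS2, MT1X and CEP55 show the matching courses downward.

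Genes lowered on day 1 went on falling in 25 of 61 cases, with a median further change of -0.64. In vehicle cultures 10 of these 25 fell and 3 rose between the days, with a median of -0.06. E2F2, a transcription factor of the G1/S transition, read 5.98, 5.93, 5.92 and 5.94 in Dox day 2 and 7.76, 7.53, 7.6 and 7.41 in Dox day 1, a 3.1-fold fall (adjusted p = 1.7e-10), beside a fall of 0.60 in vehicle cultures (adjusted p = 0.00018). RRM2, a subunit of ribonucleotide reductase, was at background on Dox day 2 and at least 1.88-fold lower. It also fell by 0.77 in vehicle cultures (adjusted p = 0.00012). MYB, a proto-oncogenic transcription factor above background on 2 of 4 Dox day 2 arrays, was 2.23-fold lower and CDCA4, a nuclear protein of the cell cycle, 2.15-fold lower. MYB and CDCA4 also fell in vehicle cultures, by 0.53 and 0.4 (adjusted p = 0.011 and 0.00092). MYC was 1.34-fold lower (log2 change -0.42, adjusted p = 0.0034).

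The 31 lowered genes that settled included 10 at background in both Dox groups, for which the array could not have shown a further fall. Among the 31, RGS2, a regulator of G-protein signaling, read 5.82, 5.7, 5.67 and 5.97 in Dox day 2 and 5.64, 5.91, 5.48 and 5.97 in Dox day 1 (change 0.04, adjusted p = 0.88) against vehicle means of 7.19 on day 2 and 7.38 on day 1. AMD1, an enzyme of polyamine synthesis, changed by -0.17 (adjusted p = 0.24) and SLC45A3, the prostate transporter prostein, by -0.08 (adjusted p = 0.45). With median scaling both passed as lower (-0.37 and -0.33, adjusted p = 0.0057 and 0.0028). The 5 that moved back were MT1X, a metallothionein, at 9.94, 10.03, 9.89 and 9.78 in Dox day 2 and 9.31, 9.33, 9.26 and 9.45 in Dox day 1 (1.49-fold higher), PMEPA1, an inhibitor of TGF-beta signaling (1.42-fold), KLF4, a zinc finger transcription factor above background on 2 of 4 Dox day 1 arrays (1.31-fold), STEAP2, a metalloreductase (1.26-fold), and STC1, a secreted glycoprotein at background on all 8 Dox arrays and named to complete the count. STEAP2 did not pass with median scaling (0.08, adjusted p = 0.46), nor STC1 without Dox day 2 replicate 3 or Dox day 1 replicate 4 (adjusted p = 0.057 each). STC1 also did not pass with an offset of 50 (adjusted p = 0.074) or without background correction (0.1). All 5 remained below vehicle on day 2, with log2 differences between -1.75 and -0.84. STC1 rose by 0.96 with vehicle, so its difference from vehicle widened, from -1.19 on day 1 to -1.75 on day 2.

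A further 39 genes were first raised on day 2 and 58 first lowered on day 2, meaning that Dox and vehicle were not separated by the test on day 1, the change between the days passed at 2-fold or more, and Dox stood apart from vehicle on day 2 in the same direction. Of the 39, 22 were at background on all Dox day 1 arrays. WNT4 (chr1:22117313-22143097), a secreted Wnt ligand, read 6.3, 6.46, 6.36 and 6.29 in Dox day 2 and 4.65, 4.68, 4.81 and 4.79 in Dox day 1, at background, and rose at least 1.9-fold (adjusted p = 9.1e-11). CLIC3, an intracellular chloride channel protein, rose at least 2.27-fold and RET, a receptor tyrosine kinase, at least 1.77-fold. CXXC5, a zinc finger protein, was above background throughout and rose 3.1-fold, with a rise of 0.32 in vehicle cultures. Of the 58 first lowered genes, 20 belonged to the mitosis list and 23 to any of the 5 cell cycle lists. All 58 had changed more steeply with Dox than with vehicle, which the definition of this course nearly fixes in advance.

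The vehicle cultures moved on their own between the days, most clearly in the genes of 1 stress response. The transcription factor ATF4 switches on amino acid synthesis, transport and tRNA charging when amino acids run short. Of 40 measured ATF4 targets, 6 rose and 11 fell between the days with Dox, with a median of -0.07, while 36 rose and none fell with vehicle, with a median of 0.54. Under median scaling the Dox counts were 3 higher and 21 lower. The change differed between the treatments for 32 of the 40, each time lower with Dox, and on day 2 itself 32 of the 40 were lower and 1 higher with Dox than with vehicle (16.7% and 16.6% of all genes). The 4 that did not rise with vehicle were ALDH1L2 (-0.27), PSPH (0.22), SLC3A2 (0.23) and XPOT (0.18), named to complete the count.

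ASNS, asparagine synthetase, singled out after its values were seen, read 10.56, 10.41, 10.68 and 10.49 in Dox day 2, 10.62, 10.56, 10.57 and 10.52 in Dox day 1, 12.11 on average in vehicle day 2 and 11 in vehicle day 1. TRIB3, a pseudokinase induced by ATF4 and likewise chosen, fell by 0.33 with Dox (adjusted p = 0.00088) and rose by 1.17 with vehicle (adjusted p = 7.9e-09). The amino acid carriers SLC1A5 and SLC7A5 were 1.62-fold and 1.58-fold lower on Dox day 2 than on Dox day 1, and both rose with vehicle, by 0.35 and 0.45. NUPR1, a stress-induced chromatin protein, rose with both, by 0.69 with Dox and 1.47 with vehicle (difference -0.78, adjusted p = 7.5e-05). VLDLR, a lipoprotein receptor, rose with both by 0.59 and 0.86, and the difference did not pass the test (adjusted p = 0.24).

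More glycolysis and hypoxia genes rose than fell with both treatments after quantile normalization, but not with Dox after median scaling, where 3 rose and 6 fell. Of 31 measured, 12 rose and 2 fell with Dox at a median of 0.18, and 17 rose and none fell with vehicle at a median of 0.32, with 10 interactions below 0 and none above.

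Several genes that did not pass the test between the days in Dox cultures changed their distance from vehicle. DDIT4 (chr10:72273924-72276036), an inhibitor of mTORC1 that was chosen after its values were seen, read 12.67, 12.53, 12.5 and 12.6 in Dox day 2, 12.54, 12.57, 12.38 and 12.49 in Dox day 1, 12.84, 12.86, 12.86 and 12.93 in vehicle day 2 and 10.81, 10.85, 10.77 and 10.6 in vehicle day 1. It was thus 1.23-fold below vehicle on day 2 but 3.34-fold above it on day 1, while its Dox level did not pass the test between the days (0.08, adjusted p = 0.52). VEGFA, the angiogenic growth factor, changed by 0.24 with Dox (adjusted p = 0.057, without overlap of the groups) and by 0.92 with vehicle. With Dox it passed with an offset of 50 (adjusted p = 0.031), without background correction (0.0088) and with the filter on dim probes (0.028). It stood above vehicle by a log2 difference of 1.5 on day 2 and 2.18 on day 1. GDF15, a stress-induced cytokine that was lowered on day 1, changed by -0.13 with Dox and rose by 1.72 with vehicle. With median scaling its Dox level fell by 0.36 on the log2 scale (adjusted p = 0.029). ID1, an inhibitor of differentiation and a target of BMP signals, was lowered by 1.61 on day 1, changed by -0.09 with Dox and fell by 1.52 with vehicle, and on day 2 Dox and vehicle no longer passed the test (-0.18, adjusted p = 0.27).

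**Figure D4:**
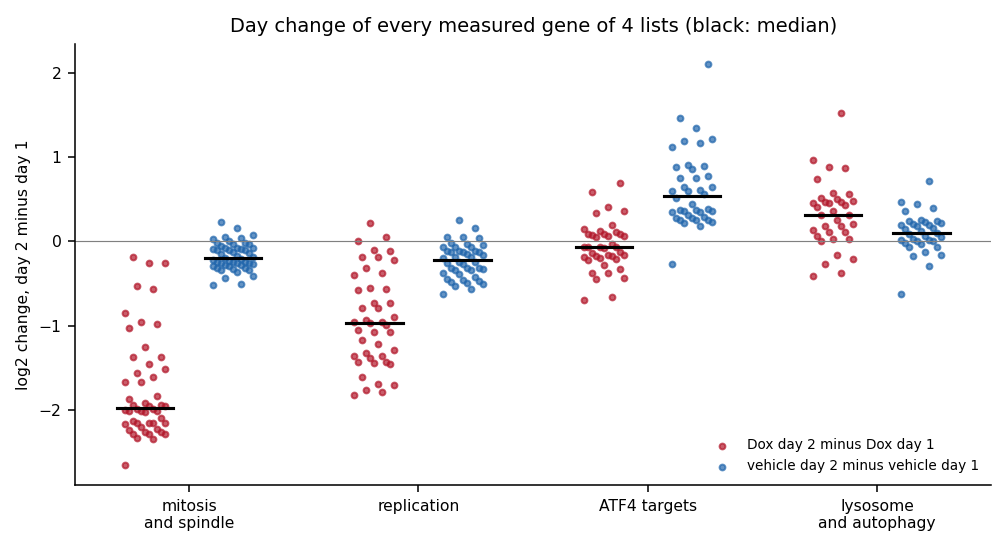
Log2 change between day 2 and day 1 (vertical axis) of every measured gene of 4 lists, with Dox cultures in red left of vehicle cultures in blue and the median as a black line. The 50 mitosis genes center on -1.98 with Dox and -0.20 with vehicle, and the 40 ATF4 targets on -0.07 with Dox and 0.54 with vehicle.

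Growth-related and biosynthetic genes moved modestly. Of 31 ribosome biogenesis genes, 21 fell with Dox, none at least 2-fold, at a median of -0.33 against -0.27 with vehicle, and only 5 had a steeper fall with Dox than with vehicle. NOLC1, a nucleolar phosphoprotein, was 1.73-fold lower. Of 34 cytosolic ribosomal proteins, 31 did not pass the test. Of 22 cytosolic chaperones, 14 fell and none rose, HSP90AB1 by 1.56-fold, beside 10 that fell with vehicle. Of 26 genes of cholesterol and fatty acid synthesis, 12 fell and 3 rose with Dox, against 1 and 7 with vehicle. In the endoplasmic reticulum 8 of 29 folding and secretion genes fell and 3 rose, beside 11% and 11.7% of all genes. Of the 29, however, 25 were above background, and of the 7929 genes above background 1733 fell and 1772 rose. With median scaling 15 of the 29 fell and 2 rose. The chaperone HSPA5 was among the 3 that rose with quantile normalization (1.44-fold higher).

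Of 35 lysosome and autophagy genes, 19 rose, 3 fell and 13 did not pass the test with Dox at a median of 0.31, against 9 that rose and 2 that fell with vehicle at a median of 0.10. With median scaling 12 rose and 5 fell with Dox at a median of 0.11. The summed raw signal of the list overlapped between the days, at 35750 to 37300 on the Dox day 2 arrays and 34260 to 40600 on the Dox day 1 arrays. ATP6V0D1, a subunit of the proton pump that acidifies lysosomes, rose 1.95-fold, the autophagosome protein MAP1LC3B 1.84-fold and the protease CTSD, cathepsin D, 1.83-fold. In vehicle cultures these 3 changed by -0.17, 0.47 and 0.06 on the log2 scale. For MAP1LC3B the difference between the Dox and vehicle changes lay close to the threshold of the interaction test (0.4, adjusted p = 0.049). Of 47 actin and invadopodia genes, 20 rose and 4 fell with quantile normalization, but 9 rose and 8 fell with median scaling, so the group's direction depended on the scaling. MAP1B, a microtubule-associated protein, moved most (3.95-fold higher) and was above background on 1 of 4 Dox day 1 arrays. Of 25 glandular secretory products 10 rose and none fell, and of 35 genes of glutathione and xenobiotic metabolism 13 rose and 4 fell. Of all genes 11.7% rose and 11% fell. With vehicle 4 rose and 2 fell of the first list, and 6 rose and 2 fell of the second. At background on all Dox arrays were 12 of the 25 and 15 of the 35.

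Of 32 interferon response genes, 12 rose and 1 fell with Dox, beside 11.7% and 11% of all genes. At background on all Dox arrays were 13 of the 32. With median scaling 9 rose and 3 fell with Dox. In vehicle cultures 6 rose and none fell. IFI6, an interferon-induced mitochondrial protein, rose 1.9-fold, IRF9, which carries the interferon signal to DNA, 1.87-fold, and IFI44, above background on 1 of 4 Dox day 1 arrays, 2.36-fold. The change differed from vehicle for all of these 3 (adjusted p = 4.4e-05, 9e-07 and 0.00055). Of 25 androgen receptor targets, 8 rose and 6 fell with quantile normalization, but 6 rose and 8 fell with median scaling, so the balance depended on the scaling. In vehicle cultures 6 of the 25 rose and 3 fell. KLK3, which encodes prostate-specific antigen, was 1.66-fold higher. Among protease inhibitors 8 of 29 rose and 2 fell, beside 11.7% and 11% of all genes. The median of the 29 was 0.06, and 15 were at background on all Dox arrays. SERPINE2, an inhibitor of thrombin and plasminogen activators, was 1.66-fold lower. TIMP1, an inhibitor of matrix metalloproteases, passed the test (log2 change 0.71, adjusted p = 0.00087) with 1 of 4 Dox day 2 arrays above background.

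**Figure D5:**
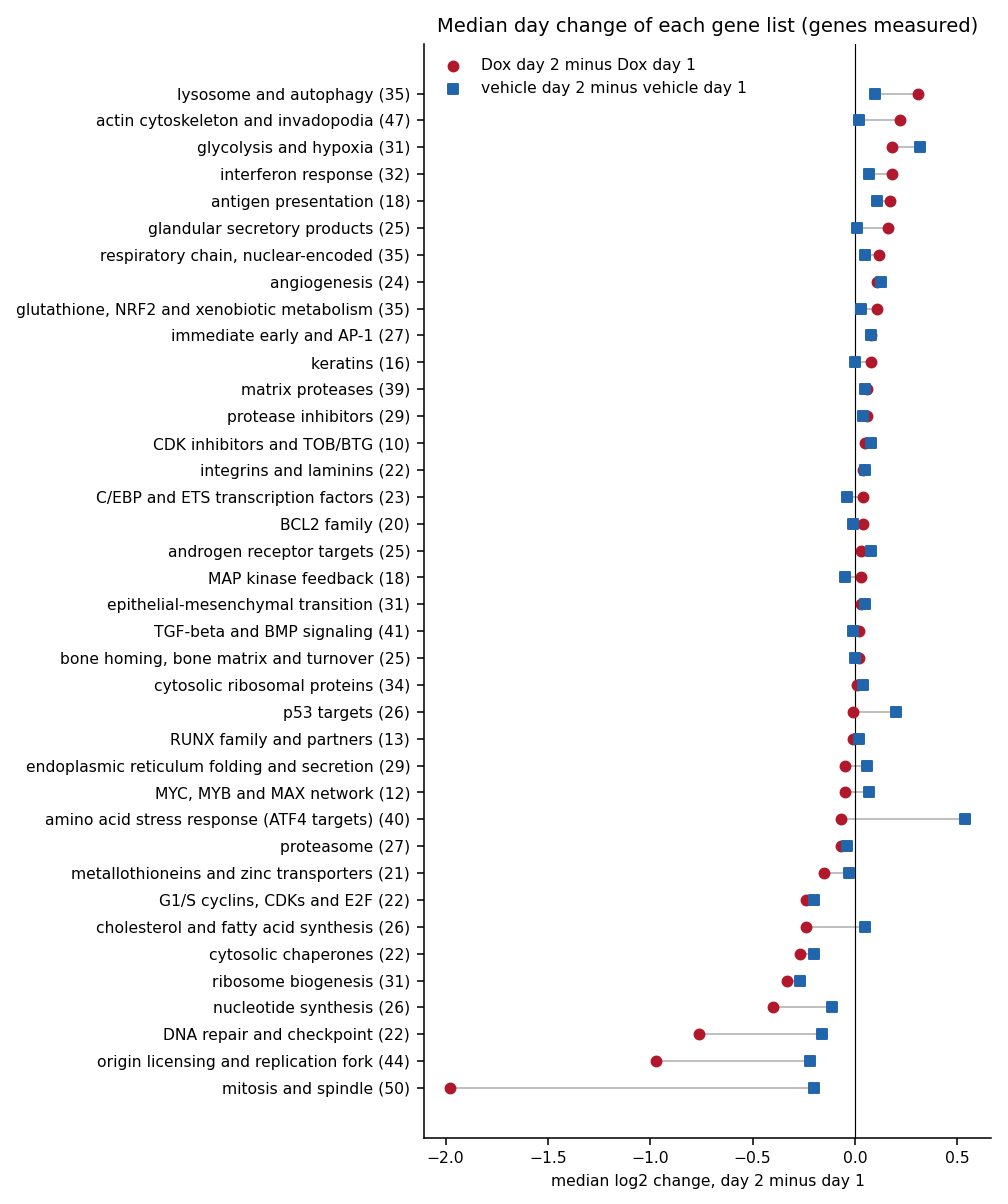
Median log2 change between day 2 and day 1 (horizontal axis) over the measured genes of each list, with red circles for Dox cultures, blue squares for vehicle cultures and the number of measured genes in brackets. Mitosis lies farthest to the left at -1.98 with Dox, and the ATF4 targets have the vehicle median farthest to the right at 0.54.

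In the Runx machinery itself, CBFB, the shared partner, was 1.26-fold lower on day 2 (7.67, 7.51, 7.62 and 7.6 in Dox day 2 against 7.95, 8.01, 7.93 and 7.86 in Dox day 1, adjusted p = 0.00013), after a difference of -0.66 from vehicle on day 1. Its other probe was at background. GAPDH, a control gene, read 13.68, 13.59, 13.59 and 13.8 in Dox day 2 and 13.7, 13.68, 13.59 and 13.6 in Dox day 1, and the groups overlapped (adjusted p = 0.88).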

How the data were processed

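Per the labels and the study's methods, RNA of 16 separate cultures (4 each of Dox day 2, Dox day 1, vehicle day 2 and vehicle day 1) was read on Illumina HumanRef-8 version 3 BeadChips, 1 array per culture. The authors deposited raw mean bead signal intensities for 24526 probes, with a detection p-value per probe and array, computed against 664 negative control probes. They also deposited log2 values, which they had corrected for background with the MBCB model and quantile normalized, used here only as an alternative. From the raw intensities, normal-exponential background correction with negative control statistics inferred from the detection p-values, an offset of 16, quantile normalization and log2 were applied, as in neqc (limma 3.58.1, R 4.3.3).

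Means of the 4 groups were estimated from all 16 arrays together with lmFit and eBayes, and p-values were adjusted by Benjamini-Hochberg over all probes. Of the probes, 21834 had 1 gene name in the platform annotation and 2692 had none, 21813 names were matched to RefSeq by Entrez identifier, and each gene was taken by its probe with the highest mean. Where all arrays of the dimmer group were at background, a fold is a lower bound. It sets the bright group's mean against the higher of the weakest signal above background and the dim probe's own level on each array. Deviations of same-numbered Dox arrays of the 2 days correlated at 0.006 to 0.256, highest for replicate 1, and those of different-numbered arrays at -0.14 to 0.094. Replicate numbers were not treated as pairs in the main fit, and a replicate block was fitted as an alternative.

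Genes were named by a rule (the largest changes, up to 4 per list, up to 8 per course, the largest differences from vehicle, and genes of the study's text), which gave 229 genes. The text names 114 genes, and 15 of them lie outside the rule and were chosen after their values were seen. The members, lists and courses were chosen with earlier results of these data known. The steps were tested on simulated data. Alternatives were other background settings, median scaling, the deposited log2 values, a filter on dim probes, fewer groups in the fit, the replicate block, an unmoderated model, all named probes, 1.5-fold courses, each array left out and scaling on bright probes. The precision of each value is limited by the number of arrays.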

Additional observations from a re-analysis of the deposited data

Results flagged for a closer look

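One array stood apart from the 3 others of its group, by Dixon's test at its 95% critical value, in 15 of the 228 groups tested (6.58%). About 5% are expected by chance. In log2 signal the values that stood apart were as follows. On Dox day 2 replicate 1 they were PRKCD (12.07), CDKN1C (6.99), SLC7A5 (8.72) and AHNAK (9.56). On Dox day 2 replicate 4 they were KIF2C (6.66) and NCAPH (5.52). On Dox day 1 replicate 1 they were VEGFA (9.01), PLEKHS1 (8.94), SPHK1 (7.32) and XPOT (5.85). On Dox day 1 replicate 2 it was SMAD3 (7.4). On Dox day 1 replicate 4 they were SCGB1C1 (4.62), NPTX1 (5.16), SERPINE2 (7.43) and GSTM1 (8.19). Replicate 1 of either day held 8 of the 15.

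For 92 of the 114 genes named, the change between the days differed between Dox and vehicle cultures by limma's interaction test with Benjamini-Hochberg adjustment. Genes were named in part for a large Dox change or for this difference itself, so the count describes that choice. The values are log2 differences, the Dox change minus the vehicle change. Among cell cycle genes the values were NEK2 (-2.88), ASPM (-2.2), KIF20A (-2), TTK (-2.14), CDC25C (-2.21), KIF4A (-2.09), KIF2C (-2.26), CENPE (-2.04), DLGAP5 (-2), E2F2 (-1.03), RRM2 (-0.67), CCNA2 (-1.62), CKS1B (-1.69), CDC45 (-1.57), MCM2 (-1.41), MCM5 (-1.23), TYMS (-1.57), TK1 (-1.53), EXO1 (-1.76) and FANCI (-1.73). Among genes raised on day 1 that went on rising the values were S100A4 (3.08), CYP2E1 (2.94), PIP (2.97), FOLR1 (2.51), LCN2 (2.05), HTRA1 (2.31), NPPC (2), ASS1 (1.44), FUCA1 (1.29), ESPN (0.68), SH3PXD2A (1.44), SGK1 (1.21), SMAD3 (1.12), SPHK1 (1.79), GSTA1 (2) and GSTM1 (0.73). Among the other genes raised on day 1 the values were PRKCD (-0.41), VEGFA (-0.68), PLEKHS1 (-0.71), SIPA1L2 (-1.04), XBP1 (-1.11), GRHL3 (-0.81), LFNG (-0.6), DDIT4 (-2.03), BRDT (1.09) and DHRS3 (-1.39). Among genes lowered on day 1 the values were MYB (-0.63), CDCA4 (-0.7), ID1 (1.43), SLC45A3 (-0.38), MT1X (0.56), PMEPA1 (0.7), GDF15 (-1.85) and STC1 (-0.56). Among genes first raised on day 2 the values were SCGB1C1 (3.96), CETP (3.07), CLIC3 (1.85), CXXC5 (1.32), WNT4 (1.66), RET (1.5) and IFI44 (1.14). Among ATF4 targets without such a course the values were NUPR1 (-0.78), SLC7A5 (-1.11), SLC1A5 (-1.05), ASNS (-1.15), TRIB3 (-1.5) and PSPH (-0.6). Among the remaining genes those above 0 were CST7 (3.39), GLDN (2.69), LTC4S (2.29), NPTX1 (2.4), HSPA5 (0.48), ATP6V0D1 (1.13), CTSD (0.82), MAP1LC3B (0.4), KLK3 (0.42), IFI6 (0.67), IRF9 (1.14), MAP1B (1.75), TIMP1 (0.83) and SNAI2 (1.88). Of those below 0, PIF1 (-1.84), GTSE1 (-1.72) and CEP55 (-2.18) belonged to the genes first lowered on day 2. KIFC1 (-1.74), TROAP (-2.23) and PIMREG (-1.94) were among the largest falls described with the mitosis genes. The others below 0 were CDKN2D (-1.18), NOLC1 (-0.56), HSP90AB1 (-0.52), SERPINE2 (-0.72) and CBFB (-0.35).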

How the results depend on the processing

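The 1988 genes higher and 1868 lower became 1779 to 2011 and 1686 to 1904 when each array was left out in turn. The courses of raised genes became 141 to 154 (went on rising), 56 to 72 (settled) and 17 to 23 (moved back), those of lowered genes 24 to 31, 28 to 33 and 3 to 6 in the same order, genes first raised on day 2 36 to 48 and first lowered 56 to 71, and interactions among changed genes 1579 to 1727, beside 1765. The lowest count of lowered genes that moved back, 3, came without Dox day 1 replicate 4. With an offset of 50 the raised genes that went on and settled were 87 and 30, the lowered genes 13, 11 and 3 in course order, and the genes first raised and lowered 10 and 34. Without background correction they were 63, 19 and 10, then 8, 6 and 3, then 4 and 25. These 2 settings compress the differences of dim genes, so fewer genes reach 2-fold. With a 1.5-fold limit they were 354, 192 and 48, then 258, 161 and 21, then 200 and 153. Median scaling gave 1325 higher and 3221 lower genes, 99 raised genes that settled, 37 raised and 3 lowered that moved back, and 107 first lowered. The deposited normalized values gave 73 first raised, and scaling on bright probes 7832 higher, 11 lowered that moved back and 66 first raised. Where no construction is named, the cause was not tested. Raised genes that went on rising were the largest course of raised genes under each of these settings.

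With the replicate block 1972 genes rose and 1832 fell, and no count moved by over 1.5 times. The raised genes that went on were then 151, of which 147 were shared. Among the genes named in the text, AHNAK (0.45, adjusted p = 0.00022) and OXCT2 (0.38, adjusted p = 0.043) passed the test between the Dox days with the block but not without it. Of the 4 same-number correlations only that of replicate 1 (0.256) exceeded 0.1, while the different-number ones ran from -0.14 to 0.094. Whether same-numbered cultures shared their handling was not tested.

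Of the 114 genes, 91 kept their direction and side of the threshold under every setting, and none of the 92 called genes changed sign. Changes near 0 turned sign, with median scaling in DUSP1 (-0.09), RGS2 (-0.03), GAPDH (-0.05) and DDIT4 (-0.07), and in RUNX2 with the deposited values (0.01) and with scaling on bright probes (0.21), where XPOT also turned (0.04). With 1 array left out, RUNX2 ranged from -0.12 to 0.16, RGS2 from -0.05 to 0.11, GAPDH from -0.02 to 0.05, ASNS from -0.08 to 0.01 and ALDH1L2 from -0.02 to 0.12. Signal over background limits the rest, since 7958 genes were at background on all Dox arrays.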
